A study of Mus musculus with 17 samples.

Results

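Kcnb2, Kcnc1, Kcnc2, Kcnc4, Kcnq3 and Kcnq5 encode pore-forming subunits of voltage-gated potassium channels of the Kv2, Kv3 and Kv7 families. They were taken by name, as a list drawn up with earlier results of these data known, and make up 6 of the 55450 genes counted in each library. A filter on low counts kept 17615 genes, and 6 of the 6 subunit genes were among them. RNA came from adult mouse hippocampus, in 17 libraries of 3 groups: control sgLacZ (n = 5), epileptic sgLacZ (n = 6) and epileptic sgKcna1 (n = 6). Per the study, the mice were C57BL/6J of both sexes, 2 to 3 months old at surgery, and hippocampi were taken at the end of the experiment. Epilepsy was set off with kainic acid in the right amygdala, and AAV9 vectors went into the right ventral hippocampus 1 week later. The study calls the mice of the control sgLacZ group sham controls. All 3 groups received dCas9 fused to the VP64 activator under a doxycycline-driven promoter, with a Camk2a-driven transactivator and tdTomato that bias expression towards excitatory neurons, and doxycycline food for 2 weeks. The groups differed in seizure history and in the guide RNA, which was either directed to the promoter of Kcna1 (sgKcna1) or to the bacterial LacZ gene as a control (sgLacZ). Because only transduced neurons carry the activator, each library also holds RNA of neurons and glia that do not.

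Kv2 channels carry the delayed rectifier current of the soma and proximal dendrite and limit firing during sustained input. Kv3 channels open at strongly depolarized potentials and close fast, which shortens the action potential and allows firing at high rates, for example in parvalbumin interneurons and at many terminals. Kv7 channels carry the M-current, a slow, subthreshold brake on excitability that muscarinic receptors close by depleting membrane phosphoinositides, and mutations in KCNQ3 can cause neonatal epilepsy. Each channel is a tetramer, so the level of a subunit gene also bears on which partners it can meet.

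Sequence before a start site is shown for Kcnc1 and Kcnc4, the genes that differed between groups, and for Kcnc2, the Kv3 gene that did not pass the test. Each line gives the 250 bases before an annotated start in RefSeq for GRCm38.p6, the assembly that mm10 denotes, read 5′ to 3′ on the gene's strand. Capitals mark GGGCGG or its reverse complement CCGCCC, the GC box that Sp1 family factors bind. The Kcnc1 stretch lies at chr7:46396218-46396467 on the plus strand, the Kcnc4 stretch at chr3:107458899-107459148 on the minus strand and the first of 4 Kcnc2 windows at chr10:112269767-112270016 on the plus strand. These starts lie 249, 1389 and 119 bases downstream of the annotated 5′ end of Kcnc1, Kcnc4 and Kcnc2, so the printed bases lie wholly or partly within the gene spans given later. None of the 231 runs of 20 bases in each stretch was found in a coding transcript of its gene in the older GENCODE M1 set.
Kcnc1: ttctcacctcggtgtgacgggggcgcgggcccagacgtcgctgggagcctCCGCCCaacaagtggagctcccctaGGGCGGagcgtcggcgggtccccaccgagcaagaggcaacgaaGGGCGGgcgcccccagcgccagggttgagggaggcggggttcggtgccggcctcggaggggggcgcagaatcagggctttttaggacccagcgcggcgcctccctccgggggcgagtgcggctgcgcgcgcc
Kcnc4: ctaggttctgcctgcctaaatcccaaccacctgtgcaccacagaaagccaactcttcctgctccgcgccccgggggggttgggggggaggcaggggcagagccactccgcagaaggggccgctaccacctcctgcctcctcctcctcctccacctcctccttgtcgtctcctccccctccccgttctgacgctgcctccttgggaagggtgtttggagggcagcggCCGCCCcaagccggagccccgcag
Kcnc2: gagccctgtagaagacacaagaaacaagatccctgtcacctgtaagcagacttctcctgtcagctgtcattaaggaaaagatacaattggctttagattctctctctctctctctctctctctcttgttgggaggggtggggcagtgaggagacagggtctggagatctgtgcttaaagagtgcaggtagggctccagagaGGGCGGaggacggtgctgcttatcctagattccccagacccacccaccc
With the 50 bases after the start included, the Kcnc1 window held 3 GC boxes, the Kcnc4 window 1 and the first Kcnc2 window 1, against none in the other 3 Kcnc2 windows. Of 32851 windows of 300 bases in the table, 35.7% held at least 1. The GC content was 74.7% for Kcnc1, above 95.8% of all windows, and 66.7% for Kcnc4, above 85.0%. The 4 Kcnc2 windows lay between 52.7% and 58.0%. Kcnq5 had 2 windows, with 46.0% and 62.7% GC and no GC box. The cyclic AMP response element TGACGTCA (in 1.79% of all windows), the TATA box TATAAA (13.6%) and the E-box CACGTG (7.15%), each searched on both strands, were in 0 of the 8 windows of the 4 genes matched. Such matches describe letters only, and Kcnb2 and Kcnq3 were not matched to a window.

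Levels are counts per 1000000 reads in genes (CPM), scaled between libraries, and differences are log2 fold changes with their standard error (SE) from the quasi-likelihood test of edgeR, whose p-values were adjusted over all tested genes. Libraries held 11839240 to 28311328 reads in genes, so that 3 reads came to between 0.102 and 0.280 CPM, far below the level of each subunit gene. Epileptic sgKcna1 replicate 12 stood apart, with the fewest reads and 41.5% of its reads unmapped, against 11.0% to 27.7% in the other 16 libraries. Kcna1, the gene the guide targets, was at 25.5 to 44.0 CPM in control sgLacZ and at 16.9 to 56.7 CPM in epileptic sgLacZ. In the libraries labelled epileptic sgKcna1 it was at 132.5 CPM in replicate 12 and at 13.9 to 29.5 CPM in the other 5. Group names here thus follow the labels and not a rise of the target in these libraries. By quantitative PCR the study found more Kcna1 in injected than in contralateral hippocampi of epileptic mice given the Kcna1 guide, and no difference with the control guide. Those hippocampi were taken after EEG recordings, and those for RNA-Seq after behavioural tests. By RNA-Seq the study saw no clear rise and named a low number of Kcna1 reads as a possible reason. Kcna1 was not called between the epileptic groups (log2 fold change 0.32, SE 0.47, edgeR adjusted p = 0.706). Labels do not tie libraries to sex. Y-linked reads outnumbered Xist reads in 3 of 5 control sgLacZ, 2 of 6 epileptic sgLacZ and 4 of 6 epileptic sgKcna1 libraries. Defining neuronal markers were present throughout. Rbfox3, Snap25 and Syt1 summed to 3757.7 to 4066.0 CPM in control sgLacZ, 3240.9 to 3688.5 CPM in epileptic sgLacZ and 3506.9 to 4280.3 CPM in epileptic sgKcna1, with 0 of 3 called in any comparison. The epileptic sgLacZ sums all lay below the control sgLacZ sums, with a median log2 fold change of -0.26 over the 3 genes. Nothing in the labels says that each library is 1 animal, so p-values measure the spread between these libraries.

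In hippocampi of epileptic mice with the control guide, the Kv3 genes Kcnc1 and Kcnc4 rose 1.54-fold and 1.60-fold over control sgLacZ. Kcnc2, of the same family, and the Kv2 and Kv7 genes Kcnb2, Kcnq3 and Kcnq5 did not pass the test. Of the 6 genes, 2 passed the test as higher and 0 as lower at an adjusted p of 0.05 in edgeR, beside 7.26% and 3.76% of all tested genes (11.0% in either direction). The median log2 fold change of the 6 was 0.09, against 0.02 over all tested genes. A tissue library cannot tell fewer cells of a type from less RNA per cell, and this holds for each difference given here.

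Kcnc4 encodes Kv3.4, an inactivating Kv3 subunit found in axons and terminals. It lies at chr3:107438298-107460287 and overlaps no annotated gene. The 5 control sgLacZ libraries held 57.1, 62.7, 63.0, 66.0 and 68.8 CPM. Epileptic sgLacZ libraries ran from 72.7 through a median of 97.7 to 140.5 CPM. No epileptic sgLacZ library reached down to the control range, a separation seen for 2.00% of tested genes in that direction. The means were 63.5 ± 4.37 (SD, n = 5) and 101.6 ± 23.5 CPM (SD, n = 6). On the log2 scale the difference was 0.68 (SE 0.15, edgeR adjusted p = 0.0320). Replicate 7 was the highest and replicate 5 the lowest of the epileptic sgLacZ libraries.

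Kcnc1 encodes Kv3.1, the subunit most tied to fast spiking, and lies at chr7:46396219-46438706 with no overlapping gene. Control sgLacZ libraries held 79.1, 81.6, 86.6, 92.7 and 93.7 CPM. Epileptic sgLacZ libraries ran from 86.9 through a median of 130.1 to 212.1 CPM, and 5 of 6 lay above every control library. The exception was replicate 5, within the control range, while replicate 4 stood highest. Means were 86.7 ± 6.51 (SD, n = 5) and 133.9 ± 44.2 CPM (SD, n = 6). On the log2 scale the difference was 0.63 (SE 0.17, edgeR adjusted p = 0.0369). The coefficient of variation was 33.0% in epileptic sgLacZ and 7.51% in control sgLacZ.

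**Figure D1:**
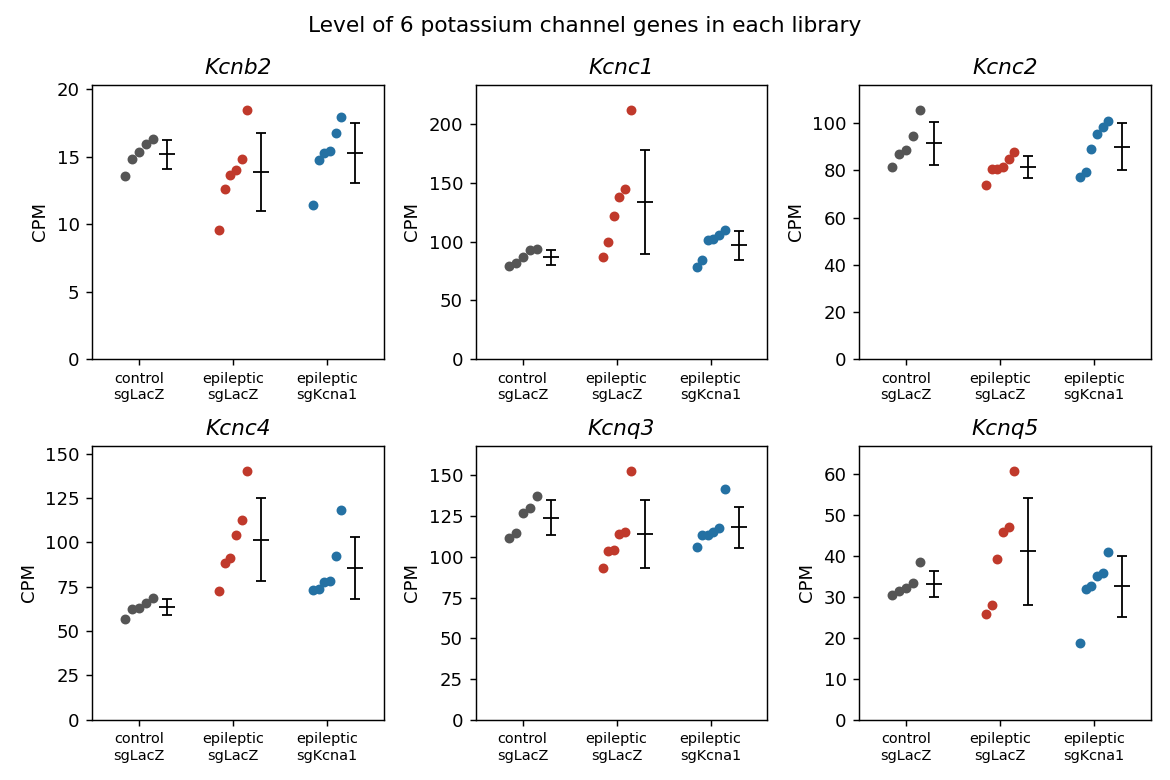
Level of each subunit gene in CPM (y axis, from 0) by group (x axis), with 1 point per library and the mean ± SD beside the points. Epileptic sgLacZ libraries lie above all 5 control sgLacZ libraries in 6 of 6 cases for Kcnc4 and in 5 of 6 for Kcnc1, while the groups overlap for Kcnb2, Kcnc2, Kcnq3 and Kcnq5.

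Both calls depended on single libraries. The Kcnc4 call was lost on leaving out control sgLacZ replicate 13, 14, 16 or 23 or epileptic sgLacZ replicate 4, 7 or 9, with edgeR adjusted p between 0.0529 and 0.0923. The Kcnc1 call was lost without any of the same 7 libraries or without control sgLacZ replicate 15, with adjusted p from 0.0557 to 0.0986. The difference kept its sign in all 17 of these fits, between 0.56 and 0.76 for Kcnc4 and between 0.45 and 0.72 for Kcnc1. In the 7 fits that lost both, 0 genes in all were called by edgeR, with 4557 to 5793 at an unadjusted p under 0.05. Kcnc1 was lowest, at 0.45, without epileptic sgLacZ replicate 4, the deepest library and the one with the fewest unmapped reads.

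Sequence composition moved with the same groups. The coding transcripts of Kcnc1 and Kcnc4 had 57.4% and 57.6% GC, above 85.4% and 86.3% of the tested genes with a value, and Kcnc2 had 43.6%. The slope of a library's log2 CPM deviation on GC, per 10 percentage points, ran from -0.10 to 0.00031 in control sgLacZ and from 0.03 to 0.15 in epileptic sgLacZ, with no overlap. With an offset for GC, chosen after seeing the data, the log2 fold change was 0.51 for Kcnc4 (edgeR adjusted p = 0.0443) and 0.46 for Kcnc1 (adjusted p = 0.0564). With the percent of unmapped reads as a covariate, it was 0.54 for Kcnc4 (adjusted p = 0.0458) and 0.39 for Kcnc1 (adjusted p = 0.0938). With inferred sex as a covariate, Kcnc1 was at 0.59 (adjusted p = 0.0548) and Kcnc4 kept its call. Kcnc4 thus passed under each of these 3 settings and Kcnc1 under none of them.

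**Figure D2:**
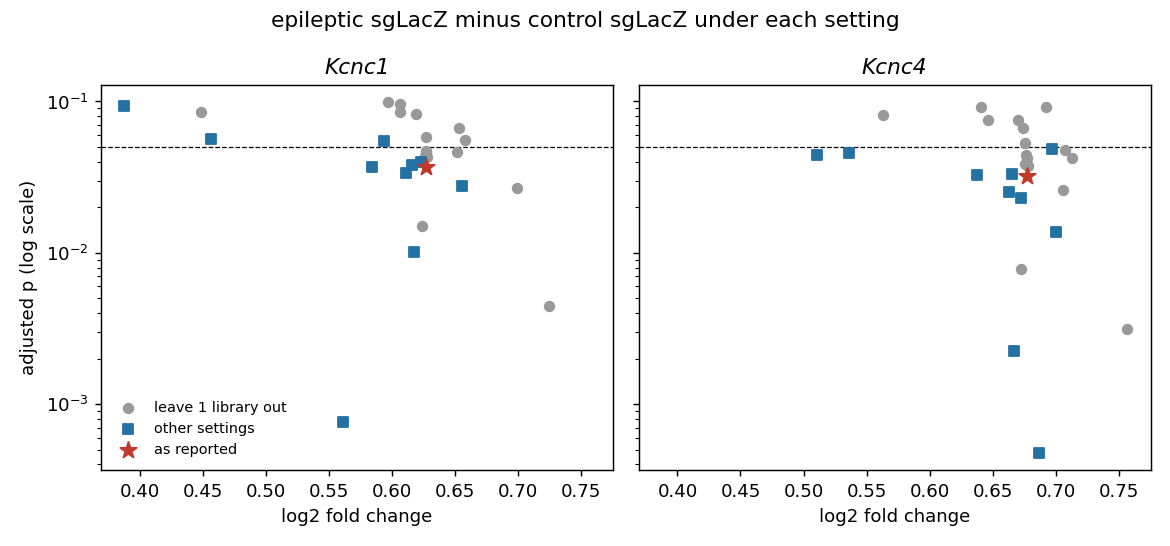
Log2 fold change (x axis) and adjusted p (y axis, log scale) of Kcnc1 and Kcnc4 in epileptic sgLacZ minus control sgLacZ, as reported, in each fit that leaves out 1 library and under the other settings. The dashed line is an adjusted p of 0.05, and the differences run from 0.39 to 0.72 for Kcnc1 and from 0.51 to 0.76 for Kcnc4.

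Kcnc2 encodes Kv3.2, a fast Kv3 subunit of interneurons and thalamic neurons, and lies at chr10:112269898-112466304. Control sgLacZ libraries held 81.6, 87.0, 88.5, 94.7 and 105.7 CPM, and epileptic sgLacZ libraries ran from 73.7 through a median of 81.1 to 87.8 CPM. The ranges overlapped, with 3 of 6 epileptic libraries below every control library. The log2 fold change was -0.17 (SE 0.09, edgeR adjusted p = 0.195). Taken within each library, the ratio of Kcnc1 to Kcnc2, which no library scaling can change, was 0.894, 0.937, 0.914, 0.877 and 1.15 in control sgLacZ replicates 13, 14, 15, 16 and 23. It ran from 1.08 through a median of 1.57 to 2.42 in epileptic sgLacZ and from 1.00 through 1.07 to 1.23 in epileptic sgKcna1. In epileptic sgLacZ, 5 of 6 libraries had a ratio above each control library, and the exception was again replicate 5. The 2 genes differ in transcript GC (57.4% and 43.6%), so a library's slope on GC bears on the ratio. In epileptic sgLacZ that slope was highest in replicate 4 (0.15, ratio 2.42) and lowest in replicate 5 (0.03, ratio 1.08). Replicates 7 and 8 ranked the other way, with slopes of 0.064 and 0.082 and ratios of 1.79 and 1.35. Neither this ratio nor its relation to GC was tested.

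**Figure D3:**
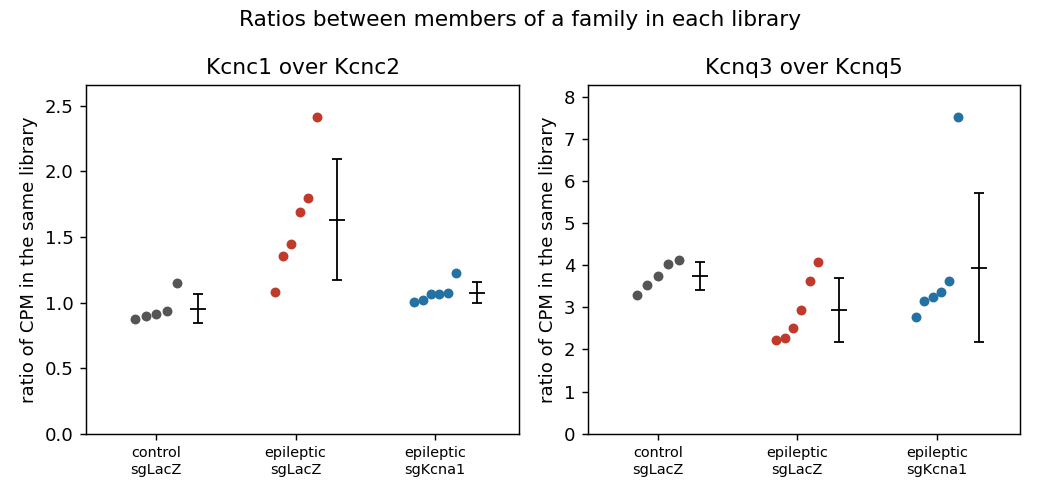
Ratio of CPM within each library (y axis, from 0) for Kcnc1 over Kcnc2 and Kcnq3 over Kcnq5 by group (x axis), with 1 point per library and the mean ± SD beside them. The Kcnc1 to Kcnc2 ratio reaches 2.42 in epileptic sgLacZ and stays at or below 1.23 in the libraries of the other groups.

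Kcnb2 encodes Kv2.2, a delayed rectifier subunit, and spans chr1:15286925-15723751. This span overlaps the annotated genes Gm51415, Gm51616, Gm51617 and Gm25227. Control sgLacZ libraries held 13.5, 14.8, 15.3, 15.9 and 16.3 CPM, and epileptic sgLacZ libraries ran from 9.55 through a median of 13.8 to 18.5 CPM. Epileptic libraries lay on both sides of the control range. The log2 fold change was -0.13 (SE 0.15, edgeR adjusted p = 0.547).

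Among the Kv7 genes, neither Kcnq3 nor Kcnq5 passed the test. Kcnq3 encodes a subunit of the M-channel and lies at chr15:65986374-66286636, where it overlaps the annotated gene Gm27242. It held 111.6, 114.6, 126.9, 129.8 and 137.3 CPM in control sgLacZ, and ran from 93.3 through 109.2 to 152.9 CPM in epileptic sgLacZ. Apart from replicate 4, each epileptic library was at or below 115.5 CPM, and the log2 fold change was -0.12 (SE 0.11, edgeR adjusted p = 0.458). Under limma voom with library quality weights Kcnq3 was called lower, at -0.20 (adjusted p = 0.0414). That fit called 7301 genes in all, against 1940 in edgeR.

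Kcnq5 encodes another M-current subunit of hippocampal neurons and lies at chr1:21398399-21962650, where it overlaps the annotated gene Gm7658. It held 30.5, 31.5, 32.3, 33.4 and 38.6 CPM in control sgLacZ, and ran from 25.8 through 42.6 to 60.9 CPM in epileptic sgLacZ. There 4 of 6 libraries lay above and 2 of 6 below each control library. The log2 fold change was 0.31 (SE 0.20, edgeR adjusted p = 0.278), and with the unmapped-read covariate it was -0.034. The strand counts of Kcnq5 added up to as much as 1.099 times its unstranded count. With both strand counts added, its log2 fold change was 0.35 (edgeR adjusted p = 0.231). The ratio of Kcnq3 to Kcnq5 ran from 3.29 to 4.11 in control sgLacZ and from 2.21 to 4.07 in epileptic sgLacZ.

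Between the epileptic groups, which ask what goes with the Kcna1 guide, none of the 6 genes passed the test. In edgeR 0 of 17615 genes were called (0%), while 3387 (19.2%) had an unadjusted p under 0.05, and DESeq2 called 112 genes and limma voom 12, with 0 of the 6 among them in either. Kcnc1 ran from 78.4 through a median of 101.6 to 109.5 CPM in epileptic sgKcna1. Its upper values overlapped the lower ones of epileptic sgLacZ, and the log2 fold change was -0.47 (SE 0.16, unadjusted p = 0.0094, edgeR adjusted p = 0.213). Without epileptic sgLacZ replicate 5 it was called lower, at -0.57 (edgeR adjusted p = 0.0421), in a fit that called 1508 genes. It was not called in the other 16 fits that leave out 1 library.

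Kcnc4 ran from 73.4 through 78.0 to 118.4 CPM in epileptic sgKcna1, and replicate 1 was the highest. Its log2 fold change against epileptic sgLacZ was -0.25 (SE 0.14, edgeR adjusted p = 0.325). Kcnq5 ran from 18.9 through 33.9 to 41.0 CPM, with the lowest value in replicate 12, the library with the most unmapped reads, and its log2 fold change was -0.33 (SE 0.19, edgeR adjusted p = 0.318). Kcnc2 ran from 77.2 through 92.4 to 100.8 CPM and had a log2 fold change of 0.15 (SE 0.09, adjusted p = 0.336). Kcnb2 ran from 11.4 through 15.3 to 17.9 CPM, with a log2 fold change of 0.13 (SE 0.14, adjusted p = 0.580). Kcnq3 ran from 106.1 through 114.5 to 141.9 CPM, with a log2 fold change of 0.05 (SE 0.11, adjusted p = 0.809).

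Epileptic sgKcna1 set against control sgLacZ also gave 0 called genes in edgeR (0%), with 1192 (6.77%) at an unadjusted p under 0.05, and 39 in DESeq2 and 71 in limma voom, again with none of the 6 genes. Kcnc4 was higher than all 5 control sgLacZ libraries in 6 of 6 epileptic sgKcna1 libraries, as were 0.562% of tested genes. Its log2 fold change was 0.43 (SE 0.15, unadjusted p = 0.0101, edgeR adjusted p = 0.674), between 0.32 and 0.47 over the alternatives. Kcnc1 was at 0.16 (SE 0.17, adjusted p = 0.837). For Kcnb2, Kcnc2, Kcnq3 and Kcnq5 the log2 fold changes were 0.0046, -0.02, -0.07 and -0.03, none called, and those of Kcnb2, Kcnc2 and Kcnq5 changed sign under some settings. The 3 comparisons share libraries in pairs and are not independent of each other.

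**Figure D4:**
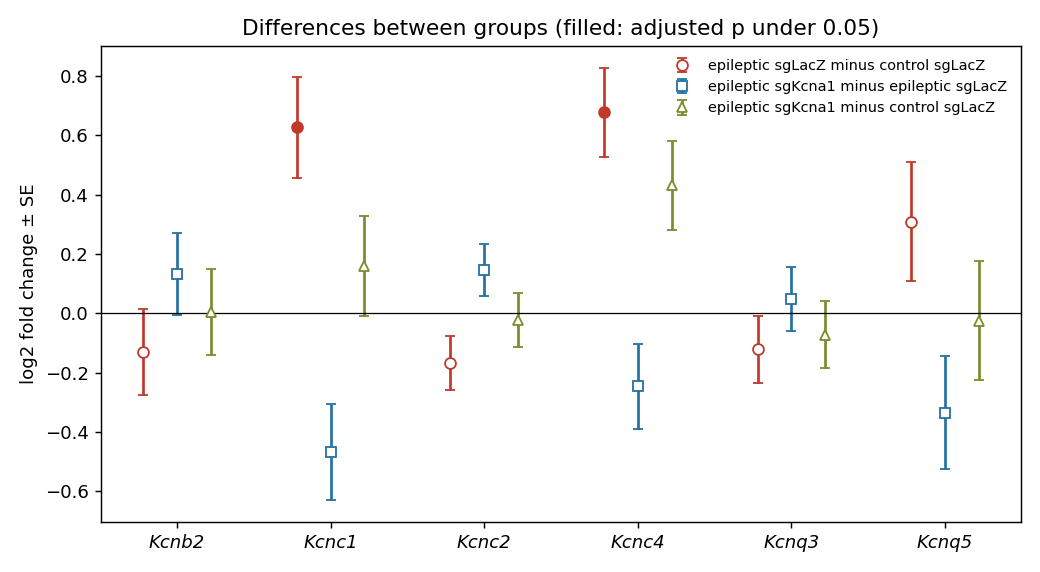
Log2 fold change ± SE (y axis) of the 6 subunit genes (x axis) in the 3 comparisons. Kcnc1 (0.63) and Kcnc4 (0.68) in epileptic sgLacZ minus control sgLacZ are the filled points, which have an adjusted p under 0.05.

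Levels were set side by side per kb of exon (RPKM) for the 4 genes whose model held untranslated sequence, with lengths from an older annotation, GENCODE M1. The models of Kcnb2 and Kcnq3 held coding length only and were not ranked. In control sgLacZ the order of level was Kcnc4 at 21.1 ± 1.45 RPKM, Kcnc2 at 14.8 ± 1.48, Kcnc1 at 9.50 ± 0.714 and Kcnq5 at 4.31 ± 0.409 (SD, n = 5), with no overlap between neighbours. In epileptic sgLacZ Kcnc4 was at 33.7 ± 7.80 RPKM, Kcnc1 at 14.7 ± 4.84, Kcnc2 at 13.1 ± 0.765 and Kcnq5 at 5.33 ± 1.69 (SD, n = 6). There Kcnc1, from 9.52 to 23.2 RPKM, overlapped the Kcnc2 range of 11.9 to 14.2. In epileptic sgKcna1 the order was as in control sgLacZ, with means of 28.4, 14.5, 10.6 and 4.22 RPKM and no overlap between neighbours.

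Of 10 electrically silent subunits, which modify Kv2 channels, 8 passed the filter and 0 were called in any comparison. Among 3 Kv2 partners, the endoplasmic reticulum protein gene Vapa, which tethers clusters of Kv2 channels, fell from 246.3 ± 13.0 to 192.3 ± 35.8 CPM (log2 fold change -0.36, SE 0.11, edgeR adjusted p = 0.0479). Amigo1, an auxiliary adhesion protein of Kv2 channels, was at 0.28 (SE 0.12, adjusted p = 0.0951) and Vapb was not called. Of 5 listed Kcne accessory subunits, 2 passed the filter and neither was called, while Kcne5 was not matched to an identifier in the counts.

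The 10 Kv7 partners comprised calmodulins, which Kv7 channels bind, the ankyrin-G gene Ank3, which anchors them at the axon initial segment, and the muscarinic pathway. In epileptic sgLacZ 1 was higher, 2 were lower and 7 were not called, with a median log2 fold change of -0.05. Pip5k1c, a kinase that makes the phosphoinositide Kv7 channels need, rose from 129.2 ± 21.5 to 262.9 ± 102.7 CPM (1.03, SE 0.25, edgeR adjusted p = 0.0330). Calm2 fell from 3450.7 ± 269.3 to 2394.8 ± 623.1 CPM (-0.53, SE 0.15, adjusted p = 0.0399). Gnaq, the G protein that couples M1 receptors to phospholipase C, fell from 541.2 ± 55.8 to 333.8 ± 89.8 CPM (-0.70, SE 0.22, adjusted p = 0.0499). Chrm1, the M1 receptor gene, was at 0.34 (SE 0.13, adjusted p = 0.0726), and Ank3 at -0.43 (SE 0.27, adjusted p = 0.271). Ank3 and Gnaq were highest in epileptic sgKcna1 replicate 12, at 836.7 and 961.6 CPM, and without it Ank3 was called lower in epileptic sgLacZ (adjusted p = 0.0209). On leaving out 1 library the calls of Vapa, Calm2, Gnaq and Pip5k1c were lost in 14, 10, 15 and 7 of 17 fits, and over all 27 alternatives in 19, 13, 18 and 7.

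**Figure D5:**
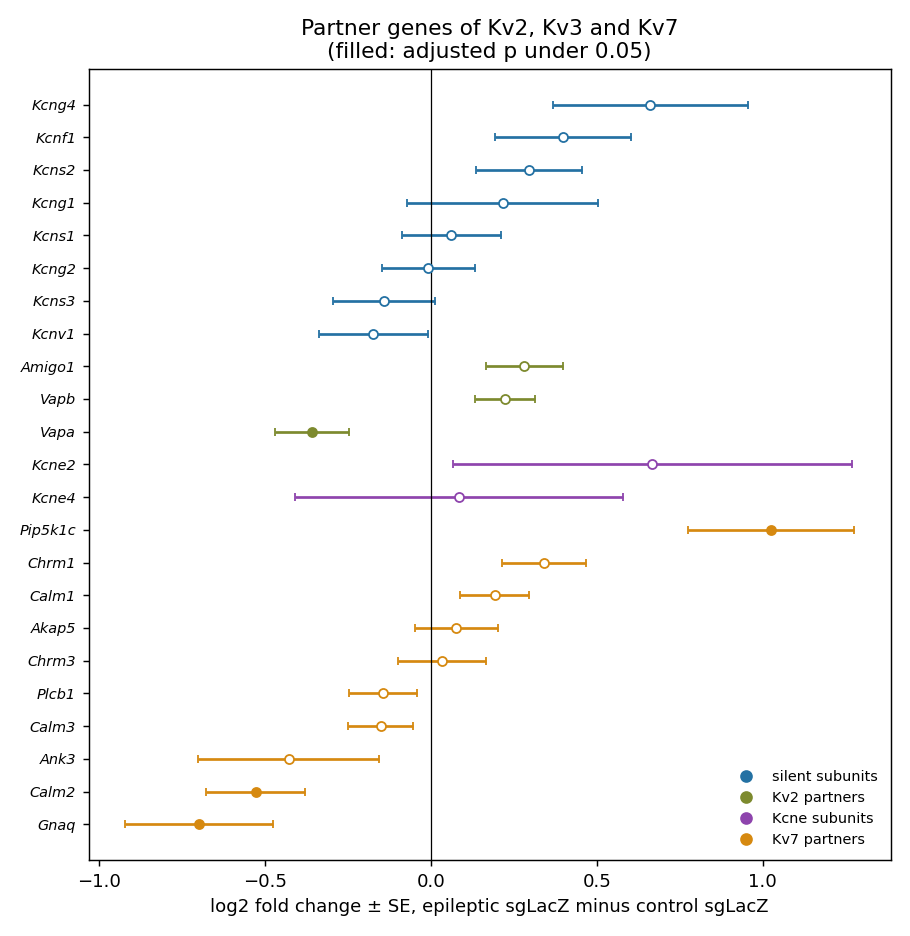
Log2 fold change ± SE (x axis) in epileptic sgLacZ minus control sgLacZ for the 23 of 28 listed partner genes that passed the filter (y axis), coloured by list, with filled points at an adjusted p under 0.05. Pip5k1c is filled to the right of 0, and Vapa, Calm2 and Gnaq to the left.

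Interneurons are among the cells that use Kv3 channels. The 7 interneuron markers summed to 1240.4 to 1541.9 CPM in control sgLacZ, 843.2 to 1391.7 CPM in epileptic sgLacZ and 1010.2 to 1491.2 CPM in epileptic sgKcna1, with 0 of 7 called by edgeR in any comparison and none at 0. Between epileptic and control sgLacZ their median log2 fold change was 0.12, and Gad1 (-0.12), Gad2 (0.27), Slc32a1 (0.14), Kcnip1 (0.66) and Erbb4 (0.12) were not called. Pvalb, the marker of fast-spiking interneurons, was at 112.2 ± 14.4 CPM in control sgLacZ and 55.6 ± 33.6 CPM in epileptic sgLacZ (log2 fold change -1.01, SE 0.33, edgeR adjusted p = 0.0524). Sst, of dendrite-targeting interneurons, was at 718.2 ± 86.4 and 413.4 ± 213.4 CPM (-0.80, SE 0.25, adjusted p = 0.0505). Epileptic sgLacZ replicate 5, the lowest for Kcnc1 and Kcnc4, was the highest of its group for Pvalb and Sst, at 119.2 and 810.5 CPM. Without it both were called lower (edgeR adjusted p = 0.0037 and 0.0027), in a fit that called 5526 genes against 1940 with all libraries. Without epileptic sgKcna1 replicate 12 both were also called lower (edgeR adjusted p = 0.0316 and 0.0285). Each was called in 7 of the 27 alternatives, among them limma voom and DESeq2, which called 7301 and 3539 genes. Epileptic sgLacZ replicate 5 also had the most unmapped reads of its group, at 24.1%, and the lowest slope on GC, at 0.03. Replicate 4, the highest for Kcnc1, had the lowest Sst of its group, at 225.6 CPM. Its Pvalb was at 32.6 CPM, and replicate 9 was the lowest, at 30.4 CPM. For Gad1, Gad2, Slc32a1, Kcnip1 and Erbb4 replicate 4 was the highest of its group, at 408.9, 191.4, 135.9, 27.5 and 50.6 CPM. It also had the fewest unmapped reads, at 11.0%, and the highest slope on GC of its group, at 0.15. The 4 excitatory neuron markers summed to 2977.6 to 3480.6 CPM in control sgLacZ and 3133.4 to 5133.9 CPM in epileptic sgLacZ, and 1 of 4, Slc17a7, was higher. Of the astrocyte markers 2 of 5 were higher, their sum running from 931.3 to 1011.2 CPM in control sgLacZ, from 1024.9 to 1471.8 CPM in epileptic sgLacZ and from 982.8 to 1317.8 CPM in epileptic sgKcna1. Of the microglial markers 1 of 5 was higher, and of the oligodendrocyte, vascular and choroid plexus markers none was called. The part of cell composition in the Kv3 differences was not tested.

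The 6 genes differed in how alike they varied over the 17 libraries. Across libraries of all 3 groups, which share depth and composition effects, log2 CPM of Kcnc1 was most alike that of Kcnq5 (Pearson r = 0.82, and 0.86 after centring each group) and Kcnc4 (0.76 and 0.62). Kcnb2 was most alike Kcnq3 (0.70 and 0.68), while Kcnc1 and Kcnc2 gave -0.01 over all libraries and 0.50 after centring. These values are descriptions.

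Likeness was sought among 9317 genes with at least 5 CPM on average and strand counts adding up to at most 5% above the unstranded count. Those most alike Kcnc1 were Supt6h (r = 0.98), Hdlbp (0.98) and 2310021P13Rik (0.97). For Kcnc4 they were Cyp46a1 (0.93), Man1c1 (0.90) and Sstr1 (0.89), and for Kcnc2 Etv4 (0.88), Tmx4 (0.81) and Nrsn1 (0.80). For Kcnb2 they were Zcchc2 (0.89), Mtus2 (0.86) and Thrb (0.78), for Kcnq3 Zfp804a (0.89), Scn8a (0.86) and Adcy1 (0.85), and for Kcnq5 Zfyve28 (0.94), Tmem57 (0.93) and Frmd5 (0.92). After centring each group the lowest of these 18 values was 0.77, and without epileptic sgKcna1 replicate 12 it was 0.79. They are the highest of many and carry no test.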

How the data were processed

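PolyA RNA of mouse hippocampus was sequenced in 17 libraries, and groups and replicate numbers came from the sample labels. The authors aligned reads with STAR 2.7 to mm10, per the submitters' processing notes, and deposited raw read counts per Ensembl gene, unstranded and per strand, with DESeq2 also named. The labels name an unstranded kit and the study's methods a stranded one; the strand counts were near equal (ratio 0.9941 to 0.9976), so unstranded counts were used. Counts were not normalised by the authors. Depth was 11839240 to 28311328 reads in genes. The summary lines of unmapped, multimapped and unassigned reads stayed out of library sizes. Symbols came from a gene name table matched by Ensembl identifier (89.66% of tested genes).

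Differences were tested with edgeR 4.0.16 in R 4.3.3 (filterByExpr, TMM scaling, glmQLFit and glmQLFTest, 1 fit over 3 groups, two-sided, Benjamini-Hochberg over 17615 genes, threshold 0.05), after a check on simulated data. CPM used TMM-scaled library sizes. Alternatives were DESeq2 1.42.0, limma 3.58.1 voom, other scaling, filter, counts and covariates, 2 groups only, leaving out each library and, chosen after seeing the data, an offset for GC and its gene subset, which also covered the partner genes. GC and exon lengths came from GENCODE M1 on mm9, matched by identifier (82.99% of tested genes had GC), positions from RefSeq GRCm38.p6. Named were the 6 genes, partner genes that passed the threshold or are the best known of their list, and the 3 genes most alike each by Pearson r of log2 CPM (prior count 2). Vapb and the cell type markers other than Pvalb and Sst were outside that rule and named after their values were seen. Results for some listed genes are not reported here. The 6 genes and all lists were chosen with earlier results of these data known.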

Additional observations from a re-analysis of the deposited data

Results flagged for a closer look

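Of 18 sets of values (6 genes in 3 groups), 2 had a library farther from the rest than Dixon's 95% limit, which chance exceeds in about 1 of 20 sets. Kcnq3 in epileptic sgLacZ replicate 4 was at 152.9 CPM, against 115.5 CPM in the next library, a gap of 0.628 of the range where the limit for 6 libraries is 0.625. Kcnq3 in epileptic sgKcna1 replicate 12 was at 141.9 CPM, against 117.9 CPM in the next, a gap of 0.670 of the range. These libraries had the fewest and the most unmapped reads of the 17, at 11.0% and 41.5%. Without replicate 4 the Kcnq3 difference between epileptic and control sgLacZ was -0.22, and without replicate 12 that between the epileptic groups was -0.01, neither called by edgeR.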

How the results depend on the processing

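For epileptic against control sgLacZ, 1940 genes were called, but 3539 with DESeq2, 7301 with limma voom, 3045 with only these 2 groups in the fit, 516 with a sex covariate, 428 with an unmapped-read covariate, 902 with the GC offset (1820 on the same genes without it) and 0 to 5526 on leaving out 1 library. The share of higher calls moved from 1278 of 1940 to 3769 of 7301 with limma voom. Of the 6 subunit genes 2 were called, but 1 with the sex covariate, 1 with the unmapped-read covariate, 1 with the GC offset and 0 to 2 on leaving out 1 library. For epileptic sgKcna1 against epileptic sgLacZ, 0 genes were called, but 112 with DESeq2, 12 with limma voom, 1 with no filter, 1 with the GC offset, 1 on its gene subset and 0 to 1508 on leaving out 1 library, with 0 to 1 of the 6. Against control sgLacZ, 0 genes were called, but 39 with DESeq2, 71 with limma voom, 266 with the unmapped-read covariate and 0 to 14 on leaving out 1 library. The cause of these shifts was not tested.

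Log2 fold changes that turned sign were never called. For epileptic sgKcna1 against control sgLacZ, Kcnb2 was -0.00051 with DESeq2, -0.057 with limma voom and -0.053 to 0.077 on leaving out 1 library; Kcnc2 was 0.0091 with the GC offset and -0.061 to 0.033; Kcnq5 was 0.050 with limma voom and -0.10 to 0.080. Against epileptic sgLacZ, Kcnq3 was -0.014 to 0.16 on leaving out 1 library and Kcnq5 0.025 with the unmapped-read covariate. For epileptic against control sgLacZ, Kcnq5 was -0.034 and Kcna1 0.44 with that covariate. Of 486 values of the 6 genes under alternatives, 449 kept direction and call, 18 lost a call, 2 gained one and 17 turned sign. No paired analysis was possible because the groups share no replicate numbers. With 5 or 6 libraries a group, differences of the size of Kcnc1 and Kcnc4 lie near the threshold.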
